A study of Homo sapiens with 3 samples.

Results

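Most transcripts described here encode the heterogeneous nuclear ribonucleoproteins (HNRNP genes) and the serine- and arginine-rich splicing factors (SRSF genes, TRA2A and TRA2B). They were followed through a map of the RNAs that DICER touched in human cells. Members were all clusters of overlapping reads whose sense annotation named a gene starting with HNRNP, an SRSF gene or TRA2A or TRA2B, and that were not annotated as a miRNA hairpin. By this rule 113 of 11577 clusters in replicate 1, 89 of 18065 in replicate 2 and 25 of 5099 in replicate 3 were members. The authors' series-wide list, which holds clusters with reads from at least 2 replicates, had 74 members of 8469. Together the clusters named 34 genes. Of these names 2, HNRNPU-AS1 and the read-through name HNRNPUL2-BSCL2, are not protein-coding symbols of these families in the RefSeq gene table. The rule left out the clusters on 2 hairpins inside these genes: MIR7-1 in HNRNPK, with 3306, 1058 and 423 conversions in the 3 replicates, and MIR636 in SRSF2, with 22, 46 and 31.

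The 3 samples formed 1 group of replicates of FLAG-DICER PAR-CLIP from the line labelled FLAG:DICER Flp-In HEK293 T-Rex, an established human embryonic kidney line that carries a tagged DICER transgene. In PAR-CLIP a photoreactive uridine analogue crosslinks RNA to the bound protein under ultraviolet light. Crosslinked uridines then read as T-to-C conversions, and the label T1 names the RNase of the protocol. All libraries carried the transgene, no library without the tag was used here, and the promoter of the transgene and whether the line was 1 clone are not given in the sources used here.

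DICER is an endonuclease that releases miRNAs from their hairpin precursors. The hnRNP proteins coat nascent transcripts and often block splice sites, and the SR proteins bind exonic sequences and help the spliceosome recognise exons. Both families are known for regulating their own mRNAs through alternative exons or introns, many of them in highly conserved stretches, whose inclusion or retention leads to decay or nuclear retention of the transcript. Exonic, untranslated and intronic sites of these genes are therefore given separately below.

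The depth behind the members was low. Member clusters held 2328, 862 and 613 conversions in replicates 1, 2 and 3, which was 0.178%, 0.0813% and 0.103% of all conversions in each list. Clusters with exactly 2 distinct reads made up 49.6% of members in replicate 1, 62.9% in replicate 2 and 92.0% in replicate 3, against 51.4%, 74.2% and 86.9% of clusters on other genes. A conversion count above 20 could thus rest on 2 distinct reads that were sequenced many times. The DICER1 transcript itself had 33, 42 and 9 clusters, and 8 of 8 marker genes of other cell types (ALB, PTPRC, INS, HBB, MYH7, GFAP, CD3E and KRT5) had none in any replicate. RNA abundance was not measured, so a count mixes contact with the amount of transcript.

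Of the 34 genes named by member clusters, 15 had a cluster in all 3 replicates. These were HNRNPA0, HNRNPA2B1, HNRNPA3, HNRNPAB, HNRNPC, HNRNPD, HNRNPF, HNRNPR, HNRNPU and HNRNPUL1, and among the SR genes SRSF1, SRSF4, SRSF6, SRSF11 and TRA2A. Of all genes with a cluster in any replicate, 17.6% had one in all 3. No test was made of that difference, and the abundance of the transcripts was not measured. The HNRNP family had 10 of 21 names in all 3 replicates and the SR family 5 of 13. Without replicate 3, the sparsest list, 25 genes had a cluster in both remaining replicates. With 3 or more distinct reads required, HNRNPAB and HNRNPF alone had a cluster in every replicate. In replicate 3, however, 23 of the 25 member clusters had exactly 2 distinct reads, which bounds this count. The share of all genes was counted neither here nor without replicate 3.

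A further 11 names had clusters in 2 replicates and 8 in 1. The former included HNRNPL, SRSF2, SRSF3, SRSF7 and TRA2B, none of which was listed in replicate 3. Those in 1 replicate were HNRNPA1L2, HNRNPH1, HNRNPM, HNRNPUL2, its read-through name HNRNPUL2-BSCL2, SRSF5, SRSF8 and SRSF12. Of 40 protein-coding symbols that fit the rule in the RefSeq gene table, 8 had no cluster under that spelling: HNRNPA1L3, HNRNPCL1 to HNRNPCL4, HNRNPDL, HNRNPLL and SRSF10. The share of all protein-coding genes without a cluster was not counted. HNRNPDL and HNRNPLL stand in the files under the older spellings HNRPDL and HNRPLL, which the rule does not take. HNRPDL had 7, 3 and 2 clusters with 90, 38 and 53 conversions, and HNRPLL had 1 cluster with 3 conversions in replicate 2 alone.

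**Figure D1:**
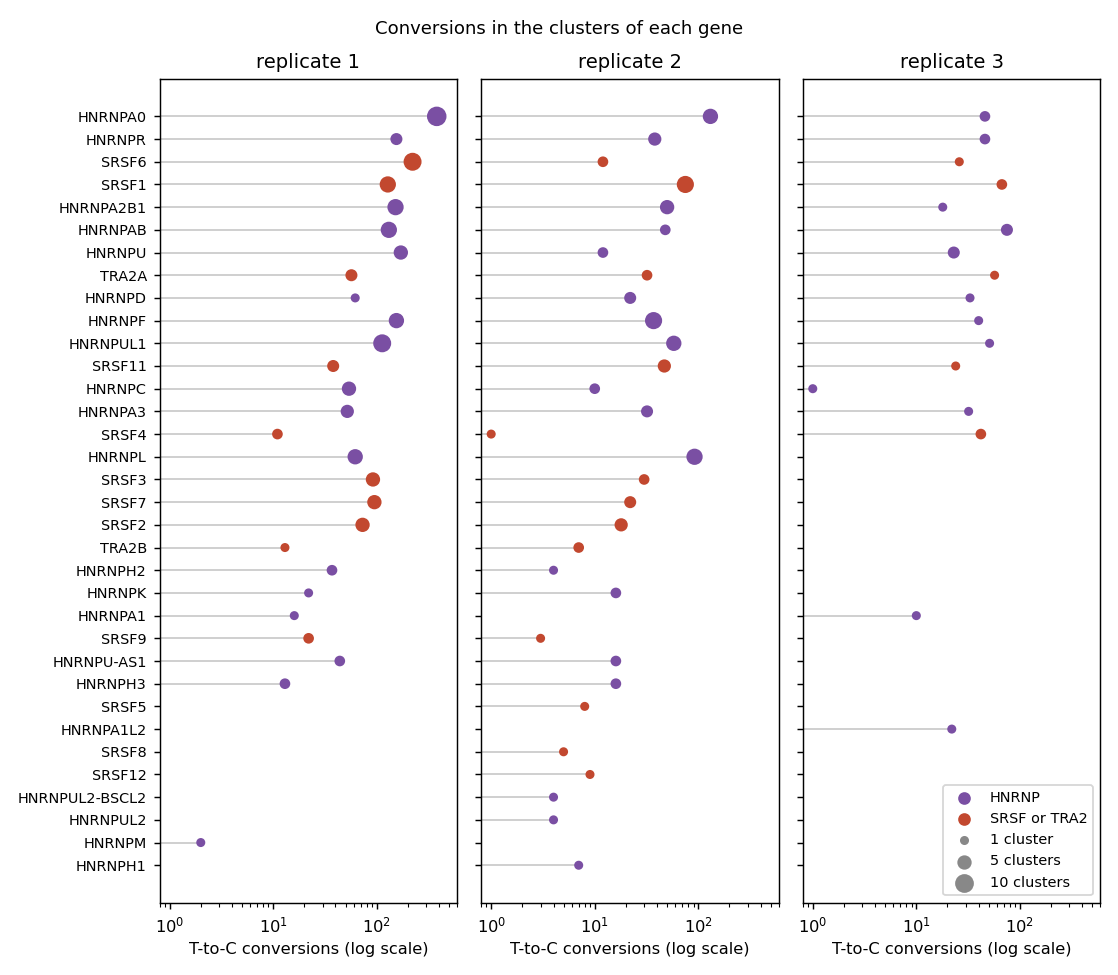
T-to-C conversions (log scale) summed over the clusters of each of the 34 genes, 1 panel per replicate, in purple for HNRNP and red for SRSF or TRA2 genes, with point size for the number of clusters and no point where a gene had none. The upper 15 genes had a cluster in every replicate, and HNRNPA0 had 380, 131 and 46 conversions.

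Among the HNRNP genes, HNRNPA0, whose protein binds AU-rich elements of mRNAs, carried 11, 6 and 2 clusters with 380, 131 and 46 conversions in replicates 1, 2 and 3. HNRNPR, an RNA-binding relative of SYNCRIP, had 155, 38 and 46 conversions, and HNRNPAB, another binder of AU-rich RNA, 131, 48 and 75. HNRNPU, a nuclear scaffold protein, had 171, 12 and 23. Replicate 1 was the highest for each of these genes, while replicate 3 exceeded replicate 2 for HNRNPR, HNRNPAB and HNRNPU. HNRNPA2B1, a splicing repressor and RNA transport factor, had 152, 50 and 18 conversions. HNRNPC, which binds uridine tracts, had 54, 10 and 1. Counts were not divided by transcript length, so their order across genes is not an order of level. They were not normalised to depth either, so their order across replicates is not an order of contact.

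Among the SR genes, SRSF1, the founding member of the family, had 7, 8 and 2 clusters with 128, 75 and 67 conversions. SRSF6 had 9, 2 and 1 clusters with 222, 12 and 26 conversions, so replicate 1 held most of its conversions. TRA2A, a homologue of the fly sex-determination factor Transformer-2, had 57, 32 and 57, and its paralogue TRA2B had 13 and 7 in replicates 1 and 2 and no cluster in replicate 3. SRSF3 and SRSF7, small SR proteins that also act in mRNA export, had 92 and 30, and 95 and 22, conversions in replicates 1 and 2. SRSF4 had 11, 1 and 42.

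Single sites recurred at the same place in all 3 replicates for 8 genes. Of the 74 series-wide member clusters, 10 were overlapped by a listed cluster in every replicate, 34 in 2, 19 in 1 and 11 in none. Among all gene clusters of that list 12.5% were overlapped in every replicate, against 13.5% of the members, so this share was near the background. Reads from all 3 replicates were recorded for 13 of the 74 members (17.6%), against 17.3% of all gene clusters.

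The member site with the most conversions lay in the 3' untranslated region of HNRNPA0 (hg19 chromosome 5, 137087849 to 137087881, minus strand). It held 157, 63 and 37 conversions from 11, 10 and 2 distinct reads, and the positions that the files list as cluster centres (an attribute they do not define) fell within 1 nt of each other. Another site of this region (137088604 to 137088630) was listed in replicates 1 and 2 alone, with 55 and 9 conversions. In the 3' untranslated region of SRSF6 the cluster with the most conversions (chromosome 20, 42090430 to 42090461, plus strand) was uneven, with 140 conversions from 7 distinct reads in replicate 1, 5 from 2 in replicate 2 and no listed cluster in replicate 3. A 3' untranslated site of SRSF4 (chromosome 1, 29474606 to 29474662, minus strand) was listed in all 3 replicates with 8, 1 and 14 conversions.

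Sites with a 5' untranslated annotation and reads from all 3 replicates were found in 4 HNRNP genes (HNRNPAB, HNRNPD, HNRNPF and HNRNPU) and in TRA2A. The TRA2A site in the 5' untranslated region (chromosome 7, 23571537 to 23571588, minus strand) had 32, 23 and 57 conversions from 5, 9 and 2 distinct reads, with the same listed centre in all 3 replicates. In HNRNPAB a cluster in the 5' untranslated region (chromosome 5, 177631550 to 177631605, plus strand) had 60, 19 and 13 conversions from 12, 10 and 2 distinct reads. HNRNPU carried a pair of sites (chromosome 1, minus strand). The 5' untranslated one (245027791 to 245027846) had 55, 3 and 5 conversions, but its clusters in replicates 2 and 3 each overlapped that of replicate 1 and not each other. The one in the coding sequence (245027472 to 245027550) had 57, 9 and 5. In these counts, which were not normalised to depth, replicate 1 was far above the others at both HNRNPU sites. HNRNPD, which directs AU-rich mRNAs to decay, had a 5' untranslated site (chromosome 4, 83294881 to 83294912, minus strand) with no listed cluster in replicate 1 and 10 and 33 conversions in replicates 2 and 3.

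Of the 13 series-wide member clusters with reads from all 3 replicates, each exonic in at least 1 transcript, 6 carried a 5' untranslated annotation. The share among all such exonic clusters of coding transcripts was 21.5%. Among all 69 exonic member clusters of that list 10 carried it, and the background there was 14.4%. The 6 clusters came from 5 genes, and no test was made of these shares. Besides HNRNPU, sites in the coding sequence had reads from all 3 replicates in HNRNPA2B1 and HNRNPL. That of HNRNPA2B1 (chromosome 7, 26236967 to 26237035, minus strand) had 37, 21 and 18 conversions. That of HNRNPL (chromosome 19, 39329573 to 39329616, minus strand) had 15 and 22 in replicates 1 and 2 and no listed cluster in replicate 3. In HNRNPA3 the 3' untranslated site at 178086070 to 178086120 of chromosome 2 held 10 conversions in replicate 1 and 32 in replicate 3, with none listed in replicate 2.

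**Figure D2:**
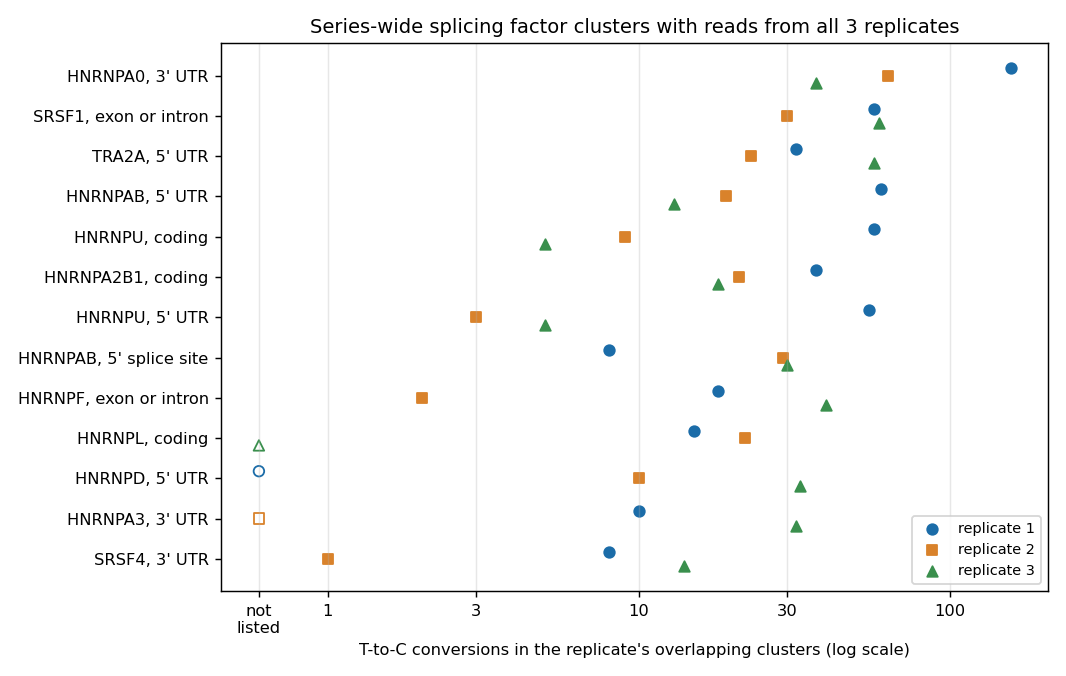
T-to-C conversions (log scale) in each replicate's clusters overlapping the 13 series-wide splicing factor clusters with reads from all 3 replicates, with open symbols where a replicate listed no cluster. HNRNPA0 spans 37 to 157, and HNRNPL, HNRNPD and HNRNPA3 each lack a listed cluster in 1 replicate.

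Within mRNA exons, the 3' untranslated region held the largest share of member clusters, as in other genes. Clusters in exons that were no intron of any listed transcript numbered 87, 59 and 17 for coding transcripts of the members. Of these, 56.3%, 54.2% and 41.2% were purely 3' untranslated in replicates 1, 2 and 3, against 58.6%, 60.0% and 55.9% for other genes. The members were lower in 3 of 3 replicates, with a mean difference of -7.60 percentage points ± 6.42 (SD, n = 3; two-sided exact permutation of signs, p = 0.25, adjusted p = 0.3125 over 5 tests). With 3 replicates this test cannot give a p below 0.25. Without replicate 3 the difference was -4.03. When every region a cluster touched was counted it was -2.90, and not all replicates were lower (p = 0.5 by the same exact test). The coding sequence held 28.8% ± 1.48 of member clusters and 28.4% ± 0.748 of those of other genes (SD, n = 3).

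The 5' untranslated region held 11.5%, 15.3% and 23.5% of these exonic member clusters in replicates 1, 2 and 3, or 10, 9 and 4 clusters. In other genes it held 7.02%, 8.19% and 10.3%. The members were higher in each replicate, but this difference was read off after the values were seen and was not tested, and the counts come from few genes.

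Clusters that lay in introns of every listed transcript were rarer in the splicing factor genes than in other genes. They made up 5.31%, 7.87% and 12.0% of members in replicates 1, 2 and 3, or 6, 7 and 3 clusters, against 18.3%, 37.3% and 39.9% of clusters on other genes. The difference was -23.5 percentage points ± 9.11 (SD, n = 3) and had this direction in 3 of 3 replicates (two-sided exact permutation of signs, p = 0.25, adjusted p = 0.3125). The difference was -15.6 when every region a cluster touched was counted and -14.5 in the series-wide list. The shares were not divided by intron length, and the part of intron length in this difference was not tested.

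**Figure D3:**
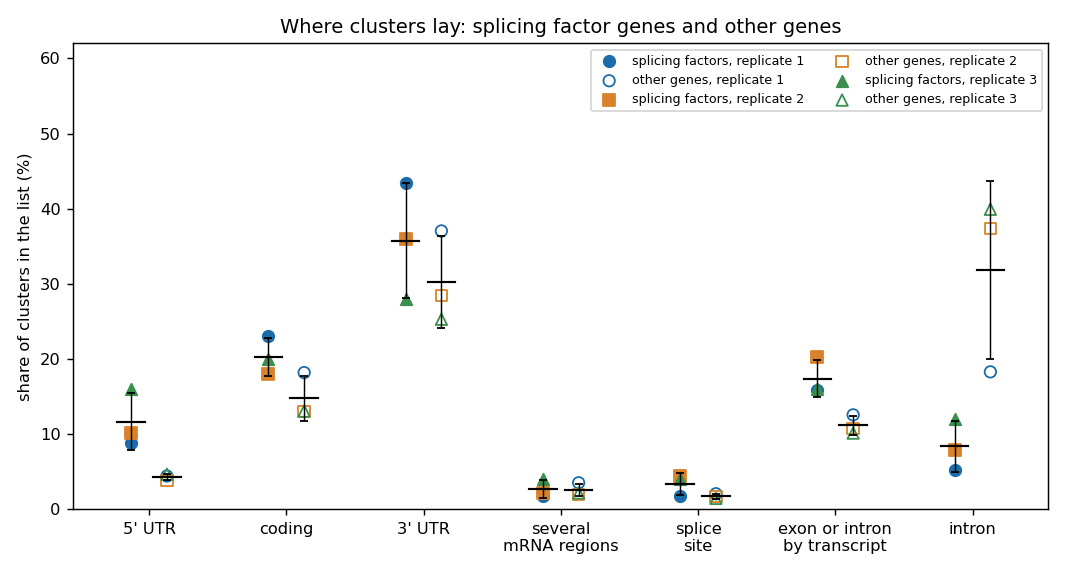
Share of clusters (%) in each annotated region, for splicing factor genes (filled) and other genes (open), with 1 symbol per replicate and bars for mean ± SD (n = 3). Intron shares of 5.31% to 12.0% for splicing factors lie below 18.3% to 39.9% for other genes.

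The 16 intronic member clusters of the replicates fell on 10 genes, and each had exactly 2 distinct reads. Their conversions ran from 1 to 28 with a median of 7.5. On the log2 scale, the median of intronic members minus that of exonic members was -0.91, -0.42 and -0.13 in replicates 1, 2 and 3. The mean difference was -0.48 ± 0.40 (SD, n = 3; two-sided exact permutation of signs, p = 0.25, adjusted p = 0.3125), and -0.27 without replicate 1. When clusters that were exonic in one transcript and intronic in another counted in both groups, the difference was -0.017, with p = 1 by the same exact test.

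Of the clusters that were intronic in every listed transcript, 1 site was listed in more than 1 replicate. In HNRNPA2B1 a cluster in an intron of each of its 4 listed transcripts (chromosome 7, 26232754 to 26232782, minus strand) had 10 conversions in replicate 1 and 5 in replicate 2, each from 2 distinct reads and with the same listed centre. Another cluster (26232121 to 26232212) crossed the 3' splice site of the same intron and the stop codon in replicate 1, with 22 conversions from 9 distinct reads. By this definition 1 of 6, 1 of 7 and 0 of 3 intronic clusters in replicates 1, 2 and 3 were overlapped in another replicate. The background for intron clusters of coding transcripts was 38.8%, 13.1% and 23.9%. The definition leaves out a site of HNRNPL (chromosome 19, 39335887 to 39335917, minus strand) that lay in an intron of all 4 HNRNPL transcripts listed there and in an exon of a transcript listed where a second gene, AC008982.2, was also named. It held 16 conversions in replicate 1 and 13 in replicate 2, each from 2 distinct reads, more than the recurrent intronic site of HNRNPA2B1.

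The other intronic clusters were each listed in at most 1 replicate. Those of HNRNPA1L2, HNRNPF and SRSF6, and that of HNRNPC from 21733681, were in the series-wide list, each with reads from 2 replicates. HNRNPC had clusters at 3 different places annotated as 5' untranslated intron, with 8 conversions in replicate 1 (chromosome 14, from 21703018), 6 in replicate 2 (from 21733681) and 1 in replicate 3 (from 21721323). These places shared 1 intron in some transcripts and not in others. A further HNRNPC intron had 4 in replicate 2. HNRNPL, which binds CA-rich RNA, had 1 and 5 conversions at different places of 1 intron in replicates 1 and 2, and 8 in another intron in replicate 1. HNRNPK, a binder of C-rich RNA and host of MIR7-1, had 10 in replicate 2. HNRNPF had 7 in replicate 2, in a 5' untranslated intron, and the antisense-named transcript HNRNPU-AS1 had 8 there. HNRNPUL1 and TRA2A had intronic clusters inside Alu repeats in replicate 1, with 1 and 10 conversions. SRSF4 had 28 conversions in replicate 3 (chromosome 1, 29502431 to 29502460). HNRNPA1L2 had 22 there, but it is a near-copy of HNRNPA1, and whether its reads belong to that gene was not tested. An intron of SRSF6 (chromosome 20, 42087236 to 42087269) appeared in the series-wide list alone, with 6 conversions.

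More member clusters lay where annotated transcripts disagree, as exon of one and intron of another, than in introns of all. There were 40 such clusters over the replicates in 10 genes, and they made up 17.4% ± 2.46 of members and 11.2% ± 1.26 of clusters on other genes (SD, n = 3). SRSF1 contributed 16 of the 40 and HNRNPL 7. Many of these clusters named a second gene on the same strand, RP11-159D12.5 in 15 of the SRSF1 clusters and ECH1 in 5 of the HNRNPL clusters, so part of the disagreement is between genes. By RefSeq transcripts alone, 17 of these member clusters in 4 genes remained: 9 in SRSF1, 5 in HNRNPF, 2 in SRSF2 and 1 in HNRNPUL1. The same count was not made for other genes, so the shares above were not compared on RefSeq transcripts.

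All but 1 of the 17 SRSF1 clusters in the replicates lay in a single exon of the coding RefSeq transcripts. The one with the most conversions (chromosome 17, 56081428 to 56081495, minus strand) was exonic in both coding RefSeq transcripts and intronic in a noncoding RefSeq transcript that splices out this stretch. Its annotation named both 3' untranslated and coding sequence. That annotation is given per cluster and not per transcript, and clusters in introns carried the coding one too. The SRSF1 cluster held 57, 30 and 59 conversions from 8, 9 and 2 distinct reads, and 108 conversions from 16 distinct reads in the series-wide list. All 3 replicates listed it, with centres within 8 nt, and it overlapped a structure predicted by EvoFold, a program that finds conserved RNA folds. Of the 17 clusters, 9 lay within the same alternative intron, 4 in replicate 1, 4 in replicate 2 and 1 in replicate 3. A second site there (56082012 to 56082040) had 26 and 7 conversions in replicates 1 and 2. Another (56078560 to 56078590) lay further 3' and outside this intron, with 14 and 6. The remaining cluster of the 17 was in an exon of every transcript that held it and was annotated as coding.

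**Figure D4:**
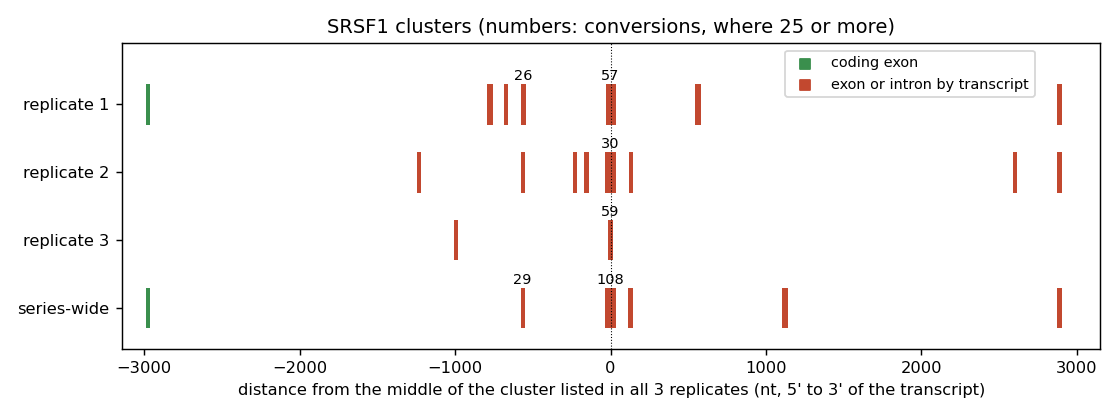
SRSF1 clusters of each list by distance (nt, in transcript direction) from the middle of the cluster listed in all 3 replicates, with conversions printed where there were 25 or more. The clusters at 0 held 57, 30 and 59 conversions in replicates 1, 2 and 3, and 9 of the 17 clusters in the replicates lay within the same alternative intron.

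SRSF2 had a similar site with fewer reads. Its cluster (chromosome 17, 74731781 to 74731813, minus strand) was exonic in a coding RefSeq transcript and lay in a 3' untranslated intron of another, and held 14 and 7 conversions in replicates 1 and 2, each from 3 distinct reads. In HNRNPF, a binder of G-rich RNA, the site was at the other end of the gene (chromosome 10, 43892126 to 43892162, minus strand). There it lay in an alternative first exon that is intron in the other RefSeq transcripts, with 18, 2 and 40 conversions from 2, 2 and 6 distinct reads. In HNRNPR the cluster at 23650112 to 23650165 on chromosome 1 (minus strand) was exonic in 9 transcripts and intronic in 1. It held 117 conversions from 15 distinct reads in replicate 1, 14 from 3 in replicate 2 and none listed in replicate 3.

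A splice site annotation beside exon and intron was carried by 7 member clusters in the replicates, 3.42% ± 1.45 of members against 1.75% ± 0.312 in other genes (SD, n = 3). It did not always mean a crossed boundary, as at HNRNPAB and HNRNPUL1 no transcript listed as exon was also listed as intron. One site of HNRNPAB (chromosome 5, 177631742 to 177631791, plus strand) was listed in all 3 replicates and carried a 5' splice site annotation in replicates 2 and 3. Its bases lay in the first exon of 2 transcripts and the first intron of 7 others. It held 8, 29 and 30 conversions from 2, 14 and 7 distinct reads. Replicate 1 was the lowest here, although it was the highest at the other 5' untranslated site of HNRNPAB. SRSF6 had a cluster over a 5' splice site (42088496 to 42088536) with 19 and 7 conversions in replicates 1 and 2, and in replicate 1 its listed cluster ended within the exon. TRA2B, SRSF3 and SRSF7, which are known for conserved alternative exons that trigger decay, had no cluster with an intron annotation in any list.

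EvoFold structures overlapped 7 of 113, 2 of 89 and 3 of 25 member clusters in replicates 1, 2 and 3, or 6.19%, 2.25% and 12.0%. Among all clusters of coding transcripts the shares were 1.24%, 0.944% and 0.833%. In the series-wide list it was 5 of 74 members, against 1.38%. The member clusters concerned lay in HNRNPA0, HNRNPA2B1, HNRNPR, SRSF1 and SRSF11. That of SRSF11 (chromosome 1, 70698005 to 70698060, plus strand) had 25 conversions in replicate 1 and 24 in replicate 3. The background includes intron clusters, which made up 17.5%, 36.6% and 39.2% of clusters on coding transcripts of other genes in replicates 1, 2 and 3. Among members they made up 5.31%, 7.87% and 12.0%, and no exonic background was counted. Clusters of 1 gene are not independent, and no test was made of the EvoFold shares.

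Member clusters had somewhat more conversions than clusters on other genes. The median was 15, 7 and 24 conversions in replicates 1, 2 and 3, against 12, 5 and 18. On the log2 scale the difference was 0.41 ± 0.08 (SD, n = 3), higher in 3 of 3 replicates (two-sided exact permutation of signs, p = 0.25, adjusted p = 0.3125). By distinct reads the medians were 3, 2 and 2 for members and 2, 2 and 2 for other genes. Where 3 or more distinct reads were required, the log2 difference was -0.019, and it was 0.056 once clusters below their list's median were dropped. Summed over all clusters of a set, members had 88.6, 94.4 and 99.8 conversions per 100 reads. Clusters on other genes had 67.7, 57.6 and 62.6, and those of coding transcripts among them 73.8, 50.2 and 56.4. These summed rates weigh the deepest clusters most and were not tested.

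**Figure D5:**
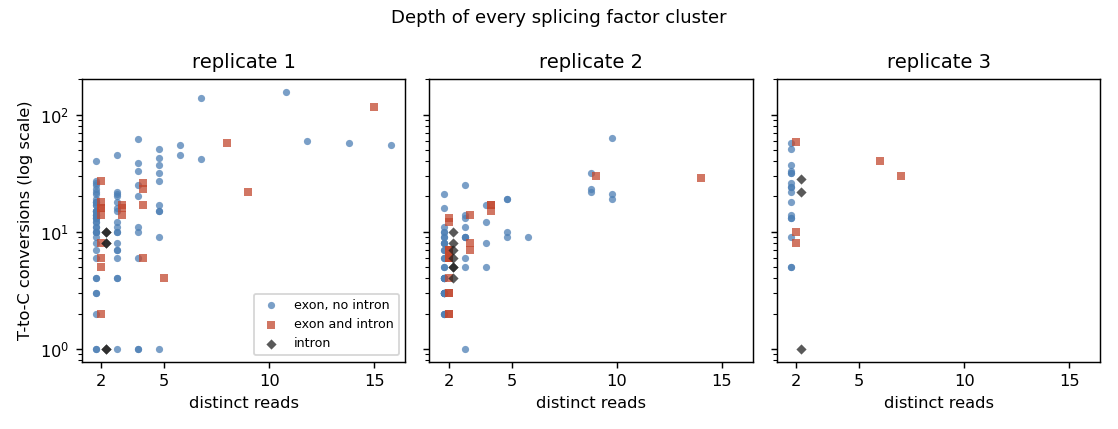
T-to-C conversions (log scale) against distinct reads for every splicing factor cluster in each replicate, by annotation, with symbols of the 3 annotations set slightly apart on the x axis. All 16 intronic clusters sit at 2 distinct reads, and in replicate 3 all but 2 clusters do.

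Support by the other replicates was compared last. In replicate 1, 10 of 113 member clusters (8.85%) were overlapped in both other replicates, and the background over all gene clusters was 8.93%. In replicate 2 it was 9 of 89 (10.1%) against 5.82%, and in replicate 3 it was 9 of 25 (36.0%) against 22.7%. Against other genes the difference was 5.86 percentage points ± 6.85 (SD, n = 3), positive in 2 of 3 replicates (two-sided exact permutation of signs, p = 0.5, adjusted p = 0.5). When 1 replicate was left out, overlap in the single other list was counted instead, and the difference was 6.12 points without replicate 1, 11.9 without replicate 2 and 14.2 without replicate 3.

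Other splicing genes, outside the naming rule, also had clusters. Of 57 listed, 17 had a cluster in all 3 replicates, 25 in 2, 13 in 1 and 2 (SNRPG and NOVA1) in none. The background for all 3 replicates was 17.6% of the genes with a cluster in any replicate, which leaves out genes with none. No test was made of that difference here either. SF3A1, a subunit of the U2 snRNP, had 315, 98 and 79 conversions. SON, a nuclear speckle protein, had 278, 76 and 86 in 14, 14 and 2 clusters. U2AF2, which binds the polypyrimidine tract, had 187, 35 and 23. SRRM2, another speckle protein, had 392 and 88 conversions in replicates 1 and 2 and no cluster in replicate 3.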

How the data were processed

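FLAG-DICER PAR-CLIP was measured in 3 replicates, which the labels do not describe as separate cultures, so p-values measure a spread that may be technical. Bowtie2 2.1.0 and hg19 are named by the submitters' processing notes. Per the file attributes, the authors called clusters of overlapping reads in each replicate over 2 sequencing runs, and a series-wide list over all replicates, at an estimated false discovery rate of 5%. The values used are the deposited counts of T-to-C conversions per cluster, not normalised to depth, with read and distinct read numbers and gene annotation from the attribute text. The deposited entropy score of the authors was not used. The totals of each list are not sequencing depths.

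Regions were read from the deposited annotation. A cluster annotated as intron and not as exon was intronic. One annotated as both was exonic in one transcript and intronic in another, or was counted under splice sites where the files name one. Other genes were clusters naming a gene that was no member and no miRNA hairpin. Overlap meant a common stretch of 1 nt or more on 1 strand. Differences were computed within each replicate and tested over the 3 replicates by an exact two-sided permutation of signs, with Benjamini-Hochberg adjustment over 5 tests, in Python 3.11.15. The overlap and test functions were tested on simulated data. The members, lists and tests were chosen with earlier results of these data known. The named genes were those with clusters in all replicates, those with a series-wide intron cluster and the next by conversions. Named sites were the series-wide clusters with reads from all replicates, the intronic clusters and some others. Not all of those with the most conversions per region were named. Genome sequence in the files' build was not used here, so no site sequences are given.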

Additional observations from a re-analysis of the deposited data

How the results depend on the processing

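With 3 replicates the exact permutation of signs cannot give a p below 0.25, so directions and sizes are compared. The lower intron share and the lower 3' untranslated share of the splicing factor clusters kept the direction of their mean under every alternative that gave a value, but not their size. Counting every region touched took the intron difference from -23.5 to -15.6 percentage points and the 3' untranslated difference from -7.60 to -2.90, where it no longer had 1 direction in all replicates, and the series-wide list gave -14.5 for introns. The higher conversions per cluster turned to -0.019 (log2) where 3 or more distinct reads were required, and was 0.056 at or above the median conversions of each list. The share overlapped in both other replicates turned to -28.3 percentage points there, where replicate 3 had 2 member clusters, and to -0.374 when clusters below their list's median conversions were dropped; the cause was not tested. The number of genes with a cluster in all replicates fell to 2 with 3 or more distinct reads, and ranged from 15 to 25 when each replicate was left out. The share of all genes was not counted under these settings. In the series-wide list the log2 difference between intron and exon clusters was -0.88. No value could be had with 3 or more distinct reads for the 3' untranslated share and the intron difference, nor for the latter at or above the median conversions, because a replicate held no such cluster. Restricting other genes to coding transcripts, an alternative chosen after seeing the data, changed no direction. No paired analysis was possible because there is 1 group, and each difference is already taken within a replicate.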

Other observations

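On the strand opposite to these genes there was no cluster in replicate 1, and there were 3 in replicate 2 and 2 in replicate 3. The share of such clusters over all genes was not counted. A site opposite HNRNPH1 (chromosome 5, 179050808 to 179050833, plus strand) was listed in replicates 2 and 3 with 4 and 18 conversions, each from 2 distinct reads. HNRNPH1 itself had 1 sense cluster, in the coding sequence, with 7 conversions in replicate 2. The name HNRNPU-AS1 was listed on the strand of HNRNPU, with 44 conversions over 2 clusters in replicate 1 that also named HNRNPU and 16 over 2 in replicate 2 that did not.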
